A study of Mus musculus with 26 samples.

Results

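The cytosolic ribosomal protein genes were followed in leukaemic stem and progenitor cells of mice that carry a chronic myeloid leukaemia (CML) transgene and differ in Spred1. Genes were chosen by symbol: Rpl or Rps followed by a number, or Rplp0, Rplp1, Rplp2 and Rpsa, without the S6 kinases and rows named as pseudogenes, and with a normalised read count (CPM, counts scaled to a common library size) of at least 1 in at least 5 libraries. Of 24091 genes in the count table, 85 had such a symbol and 81 were kept. They comprise 42 large subunit (60S) genes, 31 small subunit (40S) genes, the 3 genes of the P-stalk and 5 paralogs that resemble another member (Rpl7l1, Rpl22l1, Rpl32l, Rps4l and Rps27l). All 81 also passed the filter on low counts and were among the 13379 genes tested.

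Each ribosome holds a single copy of nearly every ribosomal protein, and cells make these proteins in step with ribosomal RNA. Most of their mRNAs begin with a run of pyrimidines, the terminal oligopyrimidine (TOP) motif, through which the mTORC1 kinase and the RNA-binding protein Larp1 control their translation. Blood stem cells keep translation low, and loss of single ribosomal proteins is known to impair red cell formation.

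RNA came from Lin-Sca-1+c-Kit+ (LSK) bone marrow cells of C57BL/6 mice with SCLtTA/BCR-ABL, in which the tetracycline transactivator under Scl control drives the BCR-ABL oncogene. The 26 libraries formed 5 groups: Spred1 wt (n = 5), global KO (n = 6), HSC wt (n = 5), HSC KO (n = 5) and EC KO (n = 5). Both HSC groups received 7 doses of 250 µg poly(I:C), intraperitoneally every 2 days, to activate Mx1-cre, which also acts outside stem cells, and HSC KO lost Spred1 this way. In EC KO, Spred1 was deleted in endothelial cells; the Cre driver is not given in the sources used here. Its own control, EC wt, was not analysed here, so EC KO was compared with Spred1 wt, which is also the control of global KO; these comparisons therefore share control libraries. The sources used here give no batch, so a difference in how the EC KO libraries were prepared or sequenced cannot be told apart from the deletion in any EC KO result. Age, and whether the other 3 groups received poly(I:C), are not given in the sources used here.

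Total counts lay between 14816071 and 26714325 per library, and between 18487602 and 24114819 in EC KO. Spred1, an inhibitor of RAS-ERK signalling, stood at 92.4 to 148 CPM in Spred1 wt and 96.9 to 109 CPM in HSC wt, against 22.4 to 44.5 CPM in global KO and 28.8 to 47.4 CPM in HSC KO. In EC KO it lay between 58.0 and 84.0 CPM, below every Spred1 wt library (log2 difference −0.70, edgeR adjusted p = 0.005272). The sort markers Kit (344 to 1249 CPM) and Ly6a, which encodes Sca-1 (41.0 to 83.6 CPM), were present in all 26 libraries. Xist marked 7 libraries as female: 3 of HSC KO, 2 of HSC wt and 2 of EC KO. The numbers of mice and of libraries match in the labels for the HSC groups, but p-values measure only the spread between these libraries.

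A run of pyrimidines at the start was more frequent in the family than among all genes, but most annotated starts lacked it. RefSeq starts (build GRCm38.p6) were found for 60 of the 81 genes, and 16 of these (26.7%) had at least 5 C or T bases in an unbroken run from the first transcribed base. Among all 27025 genes with an entry the share was 4.36%. A run of at least 8 C or T bases lay within 20 bases before to 50 bases after the start in 75.0% of the ribosomal protein genes and 25.4% of all genes. The windows below hold 10 bases before the annotated start and 20 from it, on the strand of the gene, with the longest run of C and T in capitals. They show Rpl27a, the longest run from the start, the 4 genes with such a run that rose in EC KO, both stalk genes with an entry, and the paralog pair that the results turn on.
Rpl27a chr7:109519185-109519214: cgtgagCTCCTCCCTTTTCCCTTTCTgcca
Rps18 chr17:33955646-33955675: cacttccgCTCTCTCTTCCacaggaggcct
Rps6 chr4:86857348-86857377: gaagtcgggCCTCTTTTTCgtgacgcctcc
Rpl38 chr11:114668570-114668599: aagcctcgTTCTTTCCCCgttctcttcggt
Rps21 chr2:180257369-180257398: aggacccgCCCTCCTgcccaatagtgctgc
Rplp2 chr7:141447641-141447670: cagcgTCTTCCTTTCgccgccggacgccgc
Rplp0 chr5:115559457-115559486: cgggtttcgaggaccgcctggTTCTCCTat
Rpl22l1 chr3:28805498-28805527: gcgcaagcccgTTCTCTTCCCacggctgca
Rpl22 chr4:152325716-152325745: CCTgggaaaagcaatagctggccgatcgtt
The first 6 carry an unbroken run from the annotated start, of 16, 9, 9, 8, 5 and 5 bases. Rplp0, Rpl22l1 and Rpl22 carry none at that position. The RefSeq start used for Rpl22 lies inside the gene as counted here, which begins at chr4:152324436. In Rpl22l1 a run of 10 bases begins 1 base after the start, and the run of 7 bases in Rplp0 begins further inside the window. An annotated start can differ from the start used in these cells.

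The 81 genes together took 6.67% ± 0.310 (SD, n = 5) of all counts in Spred1 wt, 7.14% ± 0.722 (n = 6) in global KO, 6.34% ± 0.218 (n = 5) in HSC wt, 6.52% ± 0.291 (n = 5) in HSC KO and 7.63% ± 0.619 (n = 5) in EC KO. The EC KO libraries held 7.43, 7.04, 8.55, 7.96 and 7.19%, and the Spred1 wt libraries 6.62, 6.73, 7.13, 6.58 and 6.27%. The 2 groups overlapped only through the lowest EC KO and the highest Spred1 wt library. In global KO the share ran from 6.34% to 8.41%, with a median of 6.91%, and 1 library lay above all others of its group. In bulk RNA, fewer cells of a type and less RNA per cell cannot be told apart. Large subunit counts were 1.19 ± 0.0274 times small subunit counts in Spred1 wt and 1.15 ± 0.0204 times in EC KO; in global KO, HSC wt and HSC KO the ratio was 1.18, 1.20 and 1.20.

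**Figure D1:**
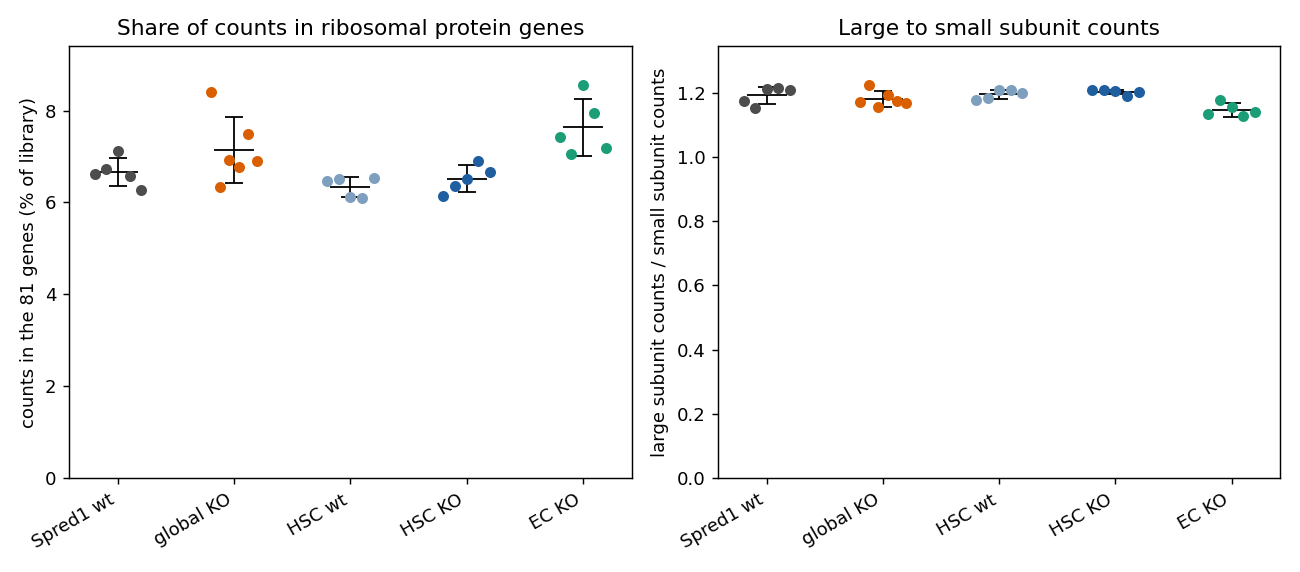
Share of counts in the 81 ribosomal protein genes (left, percent of the library) and large over small subunit counts (right) in each of the 26 libraries, by group. Points are libraries, horizontal lines are means and bars are 1 SD; EC KO lies between 7.04% and 8.55%, and 1 global KO library stands at 8.41%.

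Per kilobase of the length given in the table, the genes with the highest mean level were Rpl32, Rpl12, Rpl28, Rps26, Rplp1 and Rps4x. Rps4x reached 1865 CPM per kb and Rplp1 1918 CPM per kb. The lowest of the 76 genes that are not paralogs were Rps15a, Rpl22, Rps20, Rpl18, Rpl15 and Rps3; Rpl22 stood at 195 CPM per kb and Rps20 at 219 CPM per kb. This order rests on the length assigned: Rps12 ranked 61 by the table's length and 1 by that of its principal GENCODE transcript. Nothing further is read from levels between genes.

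The genes moved together across the libraries. The SD of log2 CPM over the 26 libraries had a median of 0.17 among the 76 genes and 0.20 among all genes tested. Measured against the mean of the other members, the median SD dropped to 0.066, and it was smaller than the plain SD in 72 of the 76. The 4 exceptions were Rplp0 (relative SD 0.43), Rpl21 (0.23), Rpl3 (0.18) and Rpl30 (0.16). Rpl6 and Rpl15, each at 0.037, were among the steadiest against the others. The 4 exceptions are the large subunit and stalk genes that stood lower in EC KO. The relative SD was taken only within the family, so moving together is not shown to be particular to these genes.

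In global KO against Spred1 wt, the comparison for loss of Spred1 in all cells, no ribosomal protein gene passed the test (edgeR quasi-likelihood test, adjusted p under 0.05 over all genes), where 0.0747% of all genes did, 0.0224% higher and 0.0523% lower. The log2 difference was above 0 for 78 of the 81 (54.5% of all genes), with a median of 0.11 against 0.01 for all genes; without global KO replicate 1 the median was 0.052. An unadjusted p under 0.05 was reached by 6 of the 81 and by 5.53% of all genes. The smallest belonged to Rps20, a small subunit protein: the global KO libraries ran from 672 to 949 CPM with a median of 761, and the Spred1 wt libraries held 703, 748, 671, 659 and 591 CPM. Of the 6 global KO libraries, 5 lay above all controls, and the log2 difference was 0.23 (SE 0.092, adjusted p = 0.7853). The others were Rpl9, Rps13, Rpl13, Rps7 and Rps21, at log2 differences of 0.16 to 0.19. DESeq2 and limma voom called 0 as well.

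In HSC KO against HSC wt, in which both groups received poly(I:C), again 0 of 81 passed, against 0.0224% of all genes, and 0 of 81 had an unadjusted p under 0.05 (2.16% of all genes). All 81 log2 differences were above 0 (56.9% of all genes), but small: the median was 0.08 against 0.02 for all genes, and among the 76 genes that are not paralogs the values ran from 0.02 to 0.12. Outside the family, genes of 0.5 to 1 kb had a median of 0.07 here, and with a term for gene length the members' median was 0.024, with 61 of 81 above 0. Every HSC KO library lay above every HSC wt library for Rpl30, Rpl35 and Rps26, 3 of 81 where 0.441% of all genes did so. Rpl30, a large subunit protein, held 502, 509, 505, 531 and 521 CPM in HSC KO and 491, 494, 465, 487 and 498 CPM in HSC wt. Rpl4 had the smallest p, at a log2 difference of 0.10 (SE 0.064, edgeR adjusted p = 0.9993). DESeq2 and limma voom called 0.

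HSC wt and Spred1 wt are both control groups. Poly(I:C) is stated for HSC wt and not given for Spred1 wt, and Xist marked 2 of 5 HSC wt libraries and 0 of 5 Spred1 wt libraries as female. Between the groups 0 of 81 passed (0.0299% of all genes), the log2 difference was above 0 for 7 of 81 (47.9% of all genes) and the median was −0.07 (−0.07 with sex as a covariate, −0.026 with a term for gene length and −0.038 without Spred1 wt replicate 3). An unadjusted p under 0.05 was reached by 3 of the 81 and by 6.35% of all genes: Rps24 (log2 difference −0.21), Rps26 (−0.21) and Rplp1 (−0.22). All HSC wt libraries lay below all Spred1 wt libraries for Rps15a, Rps24 and Rps29, all small subunit genes, where 1.1% of all genes did, and above them for 0 of 81 (0.8% of all genes). Rps24 ran from 1307 to 1476 CPM in HSC wt and from 1528 to 1839 CPM in Spred1 wt. For 0 of 81 genes did the response to global loss of Spred1 differ from that in HSC KO (interaction term, 0.0149% of all genes), with 59 of 81 above 0 (47.8% of all genes) and 0 at an unadjusted p under 0.05 (2.14% of all genes). DESeq2 and limma voom called 0 in both of these contrasts. Any difference among the 5 groups was called for 41 of 81, against 8.45% of all genes, and these calls include the EC KO contrast described next.

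**Figure D2:**
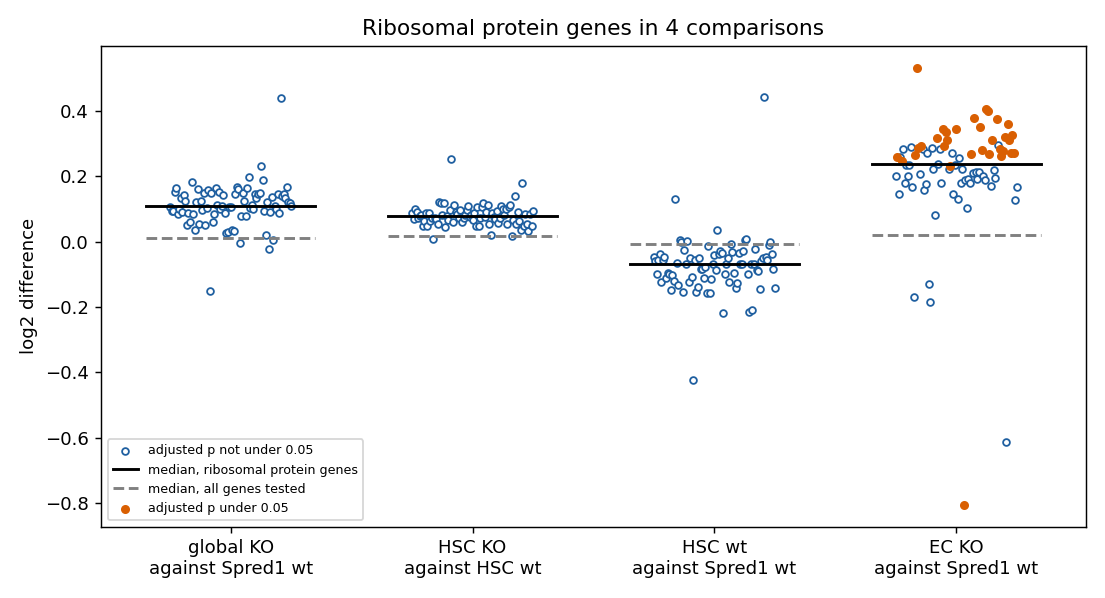
Log2 differences of the 81 genes in 4 comparisons; each point is a gene, filled where adjusted p is under 0.05. Solid lines are the medians of the 81 genes (0.11, 0.08, −0.07 and 0.24 from left to right) and dashed lines those of all genes tested; called genes appear only in EC KO, among the comparisons drawn.

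In EC KO against Spred1 wt, 31 ribosomal protein genes rose and Rplp0 fell, that is 32 of 81 called, where 7.96% of all genes were called, 3.49% higher and 4.47% lower. The median log2 difference was 0.24, against 0.02 for all genes, and 76 of 81 were above 0 (53.5% of all genes). An unadjusted p under 0.05 was reached by 68 of 81 and by 25.1% of all genes. Among small subunit genes 18 of 31 rose; among large subunit genes 12 of 42 rose; of the stalk only Rplp0 was called and of the paralogs only Rpl22l1. All EC KO libraries lay above all Spred1 wt libraries for 14 genes (2.29% of all genes) and below them for 1 (3.26%). The size of this set depended on single libraries and on settings: 11 were called without Spred1 wt replicate 5 (4.33% of all genes), 11 without EC KO replicate 3 (3.59%), 15 without EC KO replicate 4 (4.66%), 17 and 16 without Spred1 wt replicates 1 and 2 (8.22% and 5.42%), and 3 when only the 2 groups entered the fit (2.57%). It was 63 with HSC wt as the control (11.3% of all genes), 63 with limma voom (13.8%) and 68 against the average of Spred1 wt and HSC wt (15.3%).

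Shorter genes stood higher across the whole table in EC KO. Ribosomal protein genes have a median length of 0.772 kb in the table, against 3.27 kb for the genes tested. Outside the family, the median log2 difference in EC KO was 0.21 for the 196 genes of up to 0.5 kb, 0.18 for the 680 of 0.5 to 1 kb, 0.11 at 1 to 2 kb, 0.04 at 2 to 4 kb, −0.04 at 4 to 8 kb and −0.16 above 8 kb. Of these genes 9.18% rose in the class up to 0.5 kb, 5.44% at 0.5 to 1 kb and 6.54% at 1 to 2 kb. Within the family the difference by length was small: 23 of the 55 members of up to 1 kb rose, with a median of 0.26, and 8 of the 26 longer ones, with a median of 0.23. With a length term in each library's offset, 7 members were called in place of 32 (5.11% of all genes), 6 of them shared, with a median of 0.077 against 0.0069 for all genes. With length and GC content, 9 were called (5.15% of all genes), with a median of 0.10 against 0.0068. In the length fit Rps20 (0.39), Rpl22l1 (0.29), Rps27a (0.20), Rpl7 (0.18) and Rpl23 (0.16) rose, and Rplp0 (−0.92) and Rpl30 (−0.39) fell. In the other comparisons the medians of the length classes outside the family stayed between −0.07 and 0.08.

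**Figure D3:**
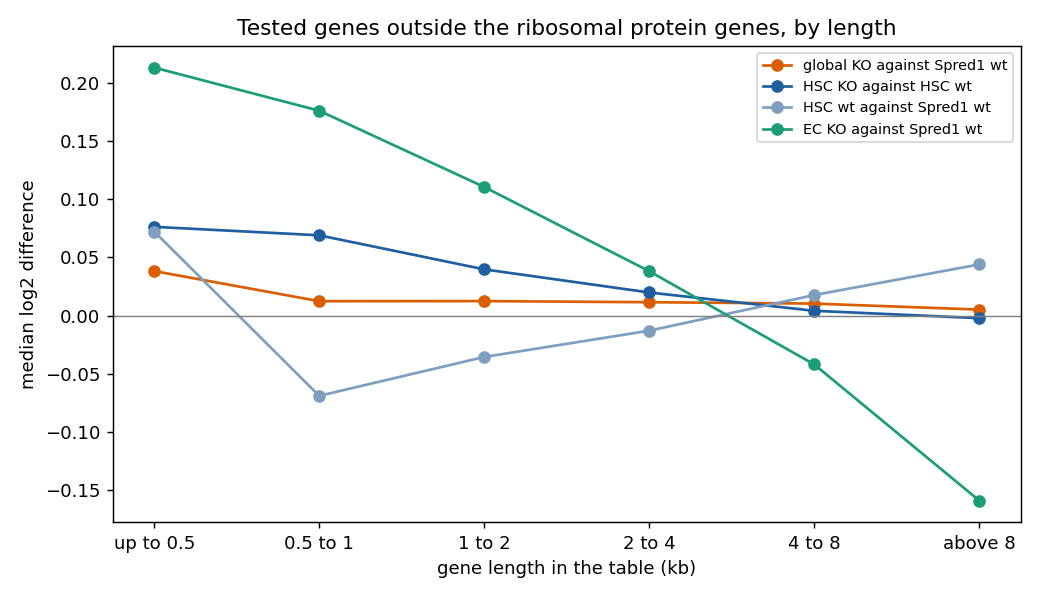
Median log2 difference of tested genes outside the family in 6 classes of gene length (kb, horizontal axis) for 4 comparisons. The EC KO line falls from 0.21 for the shortest class to −0.16 for the longest, and the other 3 lines stay between −0.07 and 0.08.

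The small subunit genes that rose most were Rps20 and Rps21. Rps20 held 896, 840, 1028, 952 and 752 CPM in EC KO, all above the highest Spred1 wt library (748 CPM). The log2 difference was 0.41 (SE 0.096, edgeR adjusted p = 0.009733). Rps21 held 421, 384, 445, 402 and 349 CPM in EC KO and 289.5, 320, 310, 307 and 289 CPM in Spred1 wt, with no overlap (0.40, SE 0.094, edgeR adjusted p = 0.009574). Rps14, which lies in the region lost in 5q- syndrome in humans, rose by 0.38 on the log2 scale, and Rps27a, made as a fusion with ubiquitin, by 0.37. Rps4x, an X-linked RNA-binding protein of the 40S subunit, held 2083, 1889, 2456, 2345 and 2007 CPM in EC KO against 1473 to 1776 CPM in Spred1 wt (0.36, adjusted p = 0.006023). Its 2 female EC KO libraries averaged 1986 CPM and the 3 male ones 2269 CPM, so both lay above the all-male Spred1 wt libraries. With the fit limited to libraries that Xist did not mark as female, 17 members were called (5.88% of all genes). Rps19, the gene most often mutated in Diamond-Blackfan anaemia, did not pass (0.20, adjusted p = 0.1033).

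Of the large subunit genes, Rpl23, which is also known to bind Mdm2, had the smallest p among those that rose. It held 1308, 1204, 1542, 1440 and 1263 CPM in EC KO and 1084, 1057, 1154, 1149 and 1101 CPM in Spred1 wt. Each EC KO library lay above all controls (0.29, SE 0.057, edgeR adjusted p = 0.003032). Rpl36a, Rpl7 and Rpl37a each rose by 0.34 on the log2 scale. Rpl5 and Rpl11, which carry the 5S RNA into the ribosome and can bind Mdm2, differed by 0.15 and 0.14 and did not pass (adjusted p = 0.1735 and 0.2895). Just inside the threshold were Rpl13 (adjusted p = 0.04443) and Rps3 (0.0447), and just outside it Rpl31 (0.05174) and Rpl6 (0.05255).

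**Figure D4:**
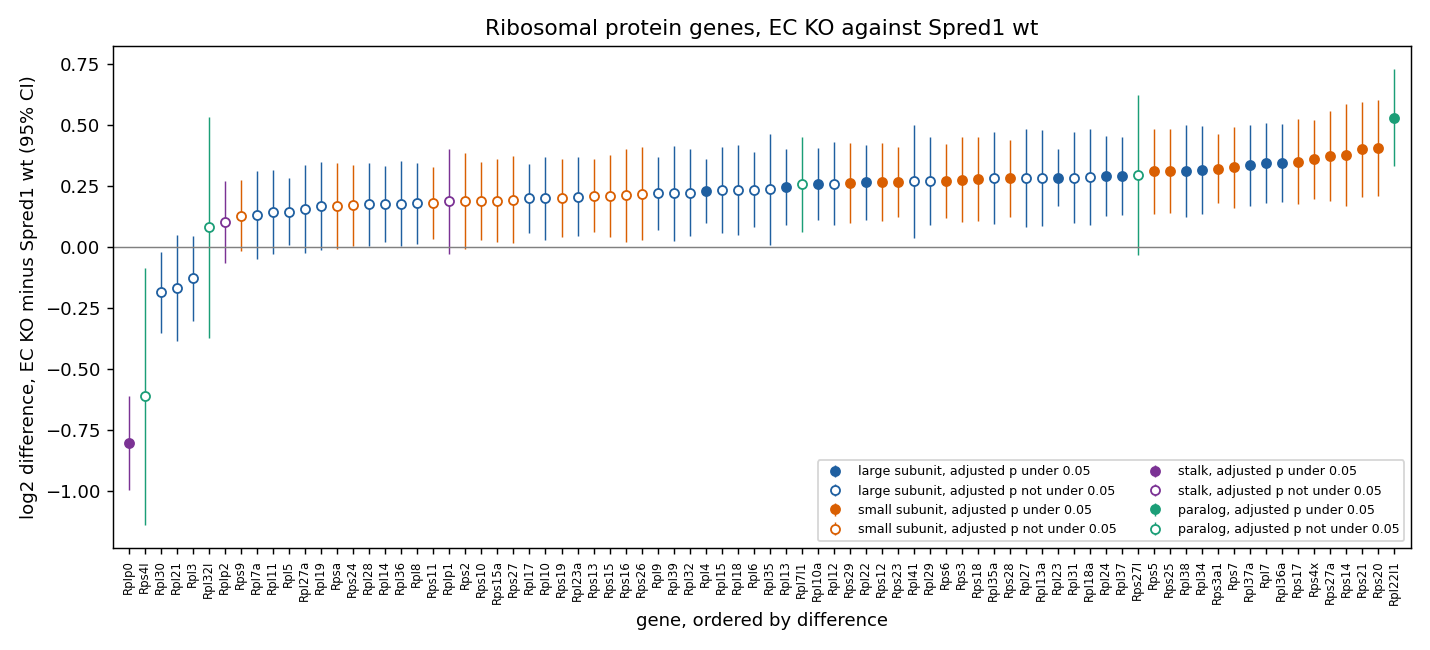
Log2 difference between EC KO and Spred1 wt with its 95% confidence interval for the ribosomal protein genes reported by name, ordered by size and coloured by role; filled points have adjusted p under 0.05. Most points lie between 0.1 and 0.4, while Rplp0 stands at −0.81 and Rpl22l1 at 0.53.

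The 3 large subunit genes Rpl3, Rpl30 and Rpl21 and 1 paralog stood on the other side of 0 without passing the test. Rpl3, which lies near the peptidyl transferase centre, held 1405, 1628, 1811, 1426 and 1253 CPM in EC KO and 1610, 1670, 1740, 1707 and 1500 CPM in Spred1 wt (−0.13, adjusted p = 0.3508). Rpl30 held 430, 413, 585, 485 and 418 CPM against 496, 482, 612, 536 and 524 CPM (−0.19, adjusted p = 0.1511). Rpl30 passed under 3 of 27 alternatives, with gene length, with length and GC content and without EC KO replicate 3, and differed by −0.063 (adjusted p = 0.6628) with HSC wt as the control. Both groups overlapped in CPM. Relative to the mean of the other members, however, each EC KO library lay below all 21 other libraries for Rpl3, Rpl30 and Rplp0, with differences from Spred1 wt of −0.36, −0.41 and −1.03. This relative level was taken for the 81 genes only, so no share over all genes stands beside it. Because most other members stood higher in EC KO, a gene that did not change would also stand lower on this scale. Rpl21 was uneven within EC KO, at 736, 709, 948, 559 and 1028 CPM, against 816 to 994 CPM in Spred1 wt (−0.17, adjusted p = 0.3244).

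Rplp0 encodes the stalk base protein P0, on which dimers of P1 (Rplp1) and P2 (Rplp2) sit to recruit translation factors, and it is widely used as a reference gene in quantitative PCR. The gene lies at chr5:115559467-115563729 (mm10). In EC KO it held 1150, 1084, 1112, 1081 and 937 CPM, and in Spred1 wt 1763, 1809, 2156, 1992 and 1658 CPM. HSC wt held 1794 to 1871 CPM, HSC KO 1618 to 2168 CPM and global KO 1869 to 2735 CPM with a median of 1959. Every EC KO library lay below all 21 others. The log2 difference from Spred1 wt was −0.81 (SE 0.093, 95% CI −0.998 to −0.613, edgeR adjusted p = 7.382e-06), the rank of its p being 11 among 13379 genes. The call held under all 27 alternative settings, with log2 differences from −0.92 to −0.73 and a largest adjusted p of 0.001616.

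The 2 other stalk genes did not pass. Rplp1 held 1031, 1010, 1210, 1032 and 877 CPM in EC KO and 774, 845, 1020, 924 and 969 CPM in Spred1 wt (0.19, adjusted p = 0.2716). Rplp2 held 600, 500, 501, 531 and 478 CPM against 457, 474, 545, 482 and 471 CPM (0.10, adjusted p = 0.4485). Both sets overlap, and both differences turned below 0 with the length term. Within the stalk, Rplp0 counts were 1.38 ± 0.0510 (SD, n = 5) times the mean of Rplp1 and Rplp2 in EC KO and 2.70 ± 0.227 times in Spred1 wt, with 2.90 to 2.97 in the other 3 groups. Rplp0 took 1.41% of the family's counts in EC KO and 2.83% in Spred1 wt. Of 36 other tested genes within 1 Mb of it, 9 were called (25%, against 7.96% of all genes), in both directions: its neighbours Pxn (0.37) and Gcn1l1 (0.26) were higher and Cit (−0.49) and Oasl2 (−2.02) lower. No other row of the table overlaps Rplp0, but its processed copies elsewhere in the genome can share reads with it.

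**Figure D5:**
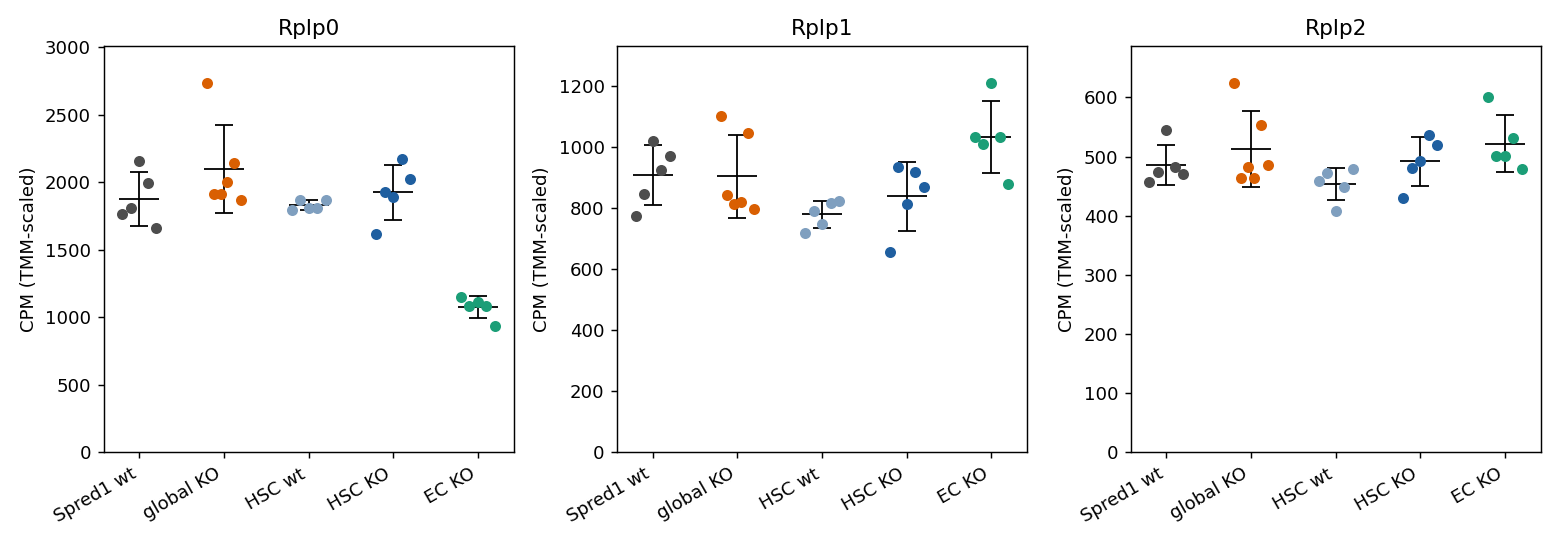
CPM of Rplp0, Rplp1 and Rplp2 in each library by group, with means and 1 SD. Rplp0 in EC KO lies between 937 and 1150 CPM, below all other libraries, whereas the Rplp1 and Rplp2 values of EC KO overlap those of Spred1 wt.

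Among the paralogs, Rpl22l1, which can take the place of Rpl22 in the large subunit, showed the largest increase of the 81 genes. That ranking is from the EC KO comparison without a length term, and with that term Rps20 stood higher. Rpl22l1 held 177, 177, 221, 194 and 153 CPM in EC KO and 140, 143, 105, 133 and 117 CPM in Spred1 wt, so the 2 groups did not overlap. The log2 difference was 0.53 (SE 0.097, edgeR adjusted p = 0.001378), and it passed under 26 of 27 alternatives; with length and GC content it was 0.22 (adjusted p = 0.1104). Rpl22 rose as well, by 0.27 (adjusted p = 0.02838), with 530, 518, 684, 600 and 517 CPM in EC KO. The level of Rpl22l1 was 32.4% ± 1.76 of that of Rpl22 in EC KO, 27.1% ± 4.37 in Spred1 wt and 32.0% ± 2.26 in HSC wt (SD, n = 5 each), in CPM without regard to length.

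The other paralogs did not pass in any comparison between 2 groups. Rps27l, a p53-regulated relative of Rps27, held 89.4, 107, 138, 105 and 61.6 CPM in EC KO (0.30, adjusted p = 0.2467). Rpl7l1, a relative of Rpl7, held 165, 185, 208, 177 and 143 CPM (0.26, adjusted p = 0.08737). Rps4l, a retrogene related to Rps4x, held 3.47, 5.13, 6.71, 6.86 and 5.38 CPM in EC KO and 10.8, 11.7, 10.9, 5.13 and 3.45 CPM in Spred1 wt (−0.61, adjusted p = 0.1329), and it differed among the 5 groups (adjusted p = 0.01423). Its values in the other 3 groups ran from 8.76 to 18.2 CPM. Rpl32l, within Map7 on the same strand, was at 1.27 to 3.22 CPM in all 26 libraries. Just under the level rule stood Rpl3l (at least 1 CPM in 1 library) and Rpl39l (at most 0.501 CPM); Rpl10l had 1 count in all and Rpl26 was listed with 0 counts in all 26 libraries, which allows up to 3 counts in total. Retrogenes and pseudogenes share sequence with their parent genes, so the counts of the paralogs are uncertain. Rpl26 encodes a regular large subunit protein, and its 0 is not read as absence of the mRNA, since the annotation and the treatment of reads with several matches are not given in the sources used here.

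The genes that rose included some with and some without a pyrimidine start. Among the genes with a RefSeq start that are not paralogs, 4 of 15 with at least 5 pyrimidines from the start rose in EC KO, with a median log2 difference of 0.19, and 18 of 41 with a shorter run or none rose, with a median of 0.26. No test was made of this difference.

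Genes that act on or beside the ribosome were counted from lists in the same EC KO comparison, in which 3.49% of all genes rose and 4.47% fell. The small subunit partners Fau and Rack1 (0.21 and 0.23) did not pass. Of 52 factors of 60S assembly 4 (7.69%) rose, among them Rpf2 (0.43), which places the 5S particle, and Dkc1 (0.36), a pseudouridine synthase; 0 fell and the median was 0.15. Of 42 factors of 40S assembly 2 (4.76%) rose, a share near that of all genes: the methyltransferase Fbl (0.30) and the kinase Riok2 (0.27). Their median was 0.20. Of 74 mitochondrial ribosomal protein genes 7 (9.46%) rose, among them Mrpl13 (0.35) and Mrps9 (0.26), 0 fell and all 74 were above 0, with a median of 0.20. The median of all genes was 0.02, but genes outside the family of up to 0.5 kb and of 0.5 to 1 kb had medians of 0.21 and 0.18. Gene length was not taken into account in these lists.

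Among 38 translation initiation factors only Eif3j1 (2.63% of the list) was called, and it fell (−0.68, edgeR adjusted p = 0.03294). It held 49.3 ± 8.47 CPM in EC KO and 78.8 ± 29.8 CPM in Spred1 wt (SD, n = 5 each), and 0 of 5 EC KO libraries lay below all controls. Against the same Spred1 wt libraries, global KO and HSC wt each differed by −0.84 without passing (adjusted p = 0.1215 and 0.1739). Among 10 elongation factors only Eef1b2, an exchange factor for eEF1A, rose (0.22). Of 18 genes for TOP mRNA control and mTORC1, Mtor (−0.27) and Tsc2 (−0.24) fell while Rheb (0.27) and Cnbp (0.33) rose, 11.1% of the list each way. Gene length was not taken into account here either. Outside the family, the EC KO medians ran from 0.21 for genes of up to 0.5 kb to −0.16 above 8 kb. Of 20 genes for RNA polymerase I and rRNA transcription only Polr2k, a subunit shared by the nuclear RNA polymerases, was called. It held 5.55 ± 0.909 CPM in EC KO and 18.1 ± 1.91 CPM in Spred1 wt (SD, n = 5 each; −1.70, edgeR adjusted p = 7.906e-11). Of 22 p53 targets only Cdkn1a (4.55% of the list, near the share of all genes that fell) was called, and it fell (−0.85). The list as a whole stood lower, with 6 of 22 above 0 and a median of −0.29, against 0.02 for all genes. In HSC wt against the same Spred1 wt libraries, 4 of 22 were above 0, with a median of −0.21. Of 10 genes of MYC and its partners 0 passed; Myc itself differed by 0.20 (adjusted p = 0.2231). In the other comparisons, including that of the 2 effects, none of these lists had a called gene.

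Markers of cell types moved beside these results in EC KO, and their medians also moved in other comparisons. Of 7 LSK markers Kit fell (516 ± 126 CPM against 930 ± 182, log2 difference −0.85), while 2 of the 7 were above 0, with a list median of −0.19. The summed LSK markers ran from 1697 to 2277 CPM in EC KO and from 1602 to 2648 CPM in Spred1 wt. Of 9 mast cell and basophil markers Mcpt4 (−3.74) and Gzmb (−2.62) fell, while 3 of the 9 were above 0, with a list median of −1.85. Their sums ran from 1668 to 3403 CPM against 2231 to 10247 CPM. Of 9 macrophage, 9 neutrophil and 8 erythroid markers 0 were called, but their medians lay above that of all genes. All 8 erythroid markers were above 0, with a median log2 difference of 1.54, and their sums ran from 17.7 to 120 CPM in EC KO and from 10.96 to 31.4 CPM in Spred1 wt. The macrophage markers had 6 of 9 above 0 and a median of 0.89, with sums of 86.6 to 305 CPM against 142 to 306 CPM. The neutrophil markers had 6 of 9 above 0 and a median of 0.49, with sums of 124 to 361 CPM against 36.7 to 453 CPM. The ranges of all 3 sums overlapped between the groups. None of these markers was called in 3 other comparisons: global KO and HSC wt, each against Spred1 wt, and HSC KO against HSC wt. In that order the list medians were −0.97, −0.56 and −0.08 for mast cells and basophils. They were −0.07, −0.56 and 2.88 for erythroid cells, 0.88, −1.06 and 0.68 for macrophages and −2.43, 1.16 and −0.89 for neutrophils. The erythroid sums of HSC KO had a median of 14.6 CPM and a maximum of 360 CPM. All markers of the 5 lists passed the filter on low counts, so none was at 0 throughout. Their part in the results on ribosomal protein genes was not tested.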

How the data were processed

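The authors deposited 1 table of whole-number read counts, not normalized, with a row per gene; its 26 columns were matched to samples by their labels. The build was mm10, and the tools were STAR 2.6.0, bcl2fastq 2.18.0.12, edgeR 3.28.1 and HTSeq 0.6.0, per the submitters' processing notes. Annotation and strand setting are not given in the sources used here, so reads of near-identical copies and of overlapping genes are uncertain. Of the 81 genes, 23 overlap a small RNA row on their own strand and 9 overlap another gene. Of 24091 genes, 5297 have 0 counts throughout; 0 pairs of columns are identical.

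CPM use TMM-scaled library sizes. After filterByExpr (minimum count 10), 13379 genes entered 1 fit of 5 group means (edgeR 4.0.16 in R 4.3.3, robust quasi-likelihood F-test, two-sided, 21 residual degrees of freedom, biological coefficient of variation 0.205), with Benjamini-Hochberg adjustment over all of them and a threshold of 0.05. Log2 differences and SE come from this fit, and SDs of log2 CPM use a prior count of 2. The method was tested on simulated data with 200 changed genes. Binomial intervals and the floor of 3 counts cover counting error only.

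The members and all lists were chosen with earlier results of these data known. Names follow a rule of roles, called genes, smallest p-values and extremes of level or SD, narrowed in the text after the values were seen; Rplp0's neighbours, Map7 and the genes without overlap lie outside it. Some lists used for checks are given only by their counts. Alternatives covered normalization, filters, DESeq2 1.42.0, limma 3.58.1 voom, sex, gene length and GC content, the control group, the samples fitted and single libraries. Thinning to the smallest library and a fit of only libraries that Xist did not mark as female were added after seeing the data. So was leaving out EC KO replicates 1 and 3 together. Some genes stayed in every fit and count but are not reported here by name. Start windows came from a RefSeq table (GRCm38.p6), first entry per symbol; 21 of the 81 genes had none. Figures were drawn with matplotlib 3.10.9 in Python 3.11.15.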

Additional observations from a re-analysis of the deposited data

Results flagged for a closer look

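Single libraries that stood apart from the others of their group were looked for in 80 groups of values: the share of counts, the subunit ratio and 14 genes described above, in each of the 5 groups. The gap of the highest or lowest library to its neighbour was set against the whole range of the group. Of these 80, 3 were past the critical value, where chance gives about 5% of groups. Rplp0 stood at 2735 CPM in global KO replicate 1, while the other 5 global KO libraries held 1869 to 2140 CPM. Rplp2 stood at 545 CPM in Spred1 wt replicate 3, above the 457 to 482 CPM of the other 4. Rpl22l1 stood at 116 CPM in HSC KO replicate 1, below the 143 to 151 CPM of the other 4.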

How the results depend on the processing

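The count of 32 ribosomal protein genes called in EC KO stayed within 1.5 times under the scaling, filter, sex and thinning alternatives and DESeq2. It was 63 with limma voom, 63 with HSC wt as control and 68 with the mean of both wild-type groups. It was 7 with gene length and 9 with gene length and GC content. The count was 3 with only the 2 groups in the fit, 17 in libraries that Xist did not mark as female and 3 without EC KO replicates 1 and 3. Leaving out single libraries gave 11 to 46. The median log2 difference of 0.24 became 0.077 with gene length and 0.10 with length and GC content. Any difference among the 5 groups was called for 41 genes, for 70 with limma voom, 9 with gene length, 11 with length and GC content, and 13 to 54 when single libraries were left out. Rpl32l changed sign in EC KO, to −0.13 with length, −0.098 with length and GC content and −0.081 without EC KO replicates 1 and 3, and ran from −0.023 to 0.17 when single libraries were left out. Rplp1 became −0.040 with length, and Rplp2 −0.12 with length and −0.076 with length and GC content. The cause of these changes between settings was not tested. The 0 calls of the other comparisons stayed 0 under every alternative run. Without the 100 most abundant other genes in the denominator, the shares were 7.66% in Spred1 wt, 8.16% in global KO, 7.28% in HSC wt, 7.50% in HSC KO and 8.72% in EC KO. No paired analysis was possible because the labels give no shared replicate numbers. Rpl32l, at a mean of 2.13 CPM, was limited by depth.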
